A study of Mus musculus with 12 samples.

Results

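CD4+ T cells of anti-CD45RB-treated SLE123 mice were compared with CD4+ T cells of anti-CD45RB-treated B6 mice, using 6 of the 12 RNA-Seq libraries of the series. The members were 3 treated SLE123 mice (1, 2 and 3) and 3 treated B6 mice (1, 3 and 5), chosen by their labels alone. B6 denotes C57BL/6 (C57BL/6J in the methods). SLE123 mice have the B6 background with 3 congenic regions from lupus-prone NZM2410 mice, Sle1 on chromosome 1, Sle2 on chromosome 4 and Sle3 on chromosome 7, none of which B6 mice carry. All 6 mice were females that had received 5 intraperitoneal injections of 100 μg of the antibody MB23G2 against CD45RB between day 0 and day 7. Their age was 9 weeks per the study's methods and 9 to 12 weeks per its figure legend. The other 6 libraries, from 3 untreated SLE123 and 3 untreated B6 mice, serve here to show where the strain difference after treatment departed from that without treatment. The CD4+ cells were enriched by removing other cells on magnetic beads. The methods also describe a split by CD25, and the titles name no CD25 fraction. SLE123 differs from B6 by whole congenic regions and not by a single gene, so a difference between the strains cannot be assigned to any one gene of these regions.

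CD45 is a transmembrane phosphatase that sets the threshold of T cell receptor signaling by acting on Src-family kinases, and CD45RB denotes the isoforms that hold its B exon. Antibodies to CD45RB promote transplant tolerance in normal mice. In lupus, CD4+ T cells help B cells to make autoantibodies: T follicular helper (Tfh) cells drive the germinal center reaction, whereas regulatory T cells (Tregs) restrain it. Naive CD4+ T cells recirculate through lymph nodes and lose their homing receptors when they become effector cells.

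The unit throughout is FPKM, the fragments of a gene scaled to its transcript length and to the mapped fragments of the library. Libraries held 13562933 to 23641603 fragments, so that 3 fragments from a 2000-base transcript gave 0.0634 to 0.111 FPKM. Pearson's r of log2(FPKM + 1) was 0.987 to 0.995 between treated SLE123 mice, 0.989 to 0.992 between treated B6 mice and 0.898 to 0.944 between mice of different strains. The labelled cell type was reflected in its markers: Cd4, the coreceptor itself, was at 295, 316 and 320.4 FPKM in the SLE123 mice and 283, 276 and 272 FPKM in the B6 mice. The strain difference of Cd4 was 0.16 ± 0.04 on the log2(FPKM + 1) scale (adjusted p = 0.0193), and it turned to −0.02 after rescaling to TPM and to −0.15 after quantile normalization. Ptprc, which encodes CD45, was at 498, 484 and 470.1 FPKM against 479, 436 and 468 FPKM, a difference of 0.07 ± 0.05 (adjusted p = 0.276) that turned to −0.11 on TPM and −0.15 after quantile normalization. In bulk RNA, fewer cells of a type and less RNA per cell cannot be told apart.

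The library of treated SLE123 mouse 1 stood apart from its group. Alb, the liver's albumin transcript, was at 28.2 FPKM in this library, 24.7 to 30.7 FPKM in the 6 B6 libraries and 0 to 0.0296 FPKM in the other 5 SLE123 libraries. The 12 tested genes of the liver list summed to 63.5 FPKM in it and to as little as 2.45 FPKM in its group. Immunoglobulin genes took 2.51% of its fragments, the lowest share among the treated SLE123 mice. Values without this library are given beside the named genes whose call changed without it and beside several lists, and its part in them was not tested. Among the 6836 genes called below, its own value lay outside the range of the 3 treated B6 mice, on the same side as its group, for 6798 (99.4%). These genes were called with mouse 1 in the fit, so this share was largely fixed by how they were chosen and gives no check of the library.

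The strain comparison after anti-CD45RB asked how the CD4+ T cells of the lupus-prone strain differed from those of B6 under the same tolerance-inducing treatment. Of 13115 genes tested with limma, 6836 (52.1%) were called at an adjusted p under 0.05, 3881 (29.6%) higher and 2955 (22.5%) lower in SLE123. The 2 groups of 3 did not overlap for 8106 genes (61.8%), 6783 of them called. A call together with a 2-fold difference was made for 1073 genes (8.18%), of which 883 were higher and 190 lower, and 205 of the 1073 were immunoglobulin or T cell receptor segments. The split between higher and lower calls moved with the scaling. The higher share was 56.8% as given, 35.3% on TPM (2442 higher, 4480 lower), 35.4% after quantile normalization (2639 and 4813) and 65.5% without immunoglobulin and mitochondrial genes (4513 and 2372). The median difference of all genes was 0.028 as given, −0.135 on TPM and −0.107 after quantile normalization, so small differences of whole gene groups are read against it. Without SLE123 mouse 1, 6685 genes were called, and 6204 were called both with and without it, all in the same direction.

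**Figure D1:**
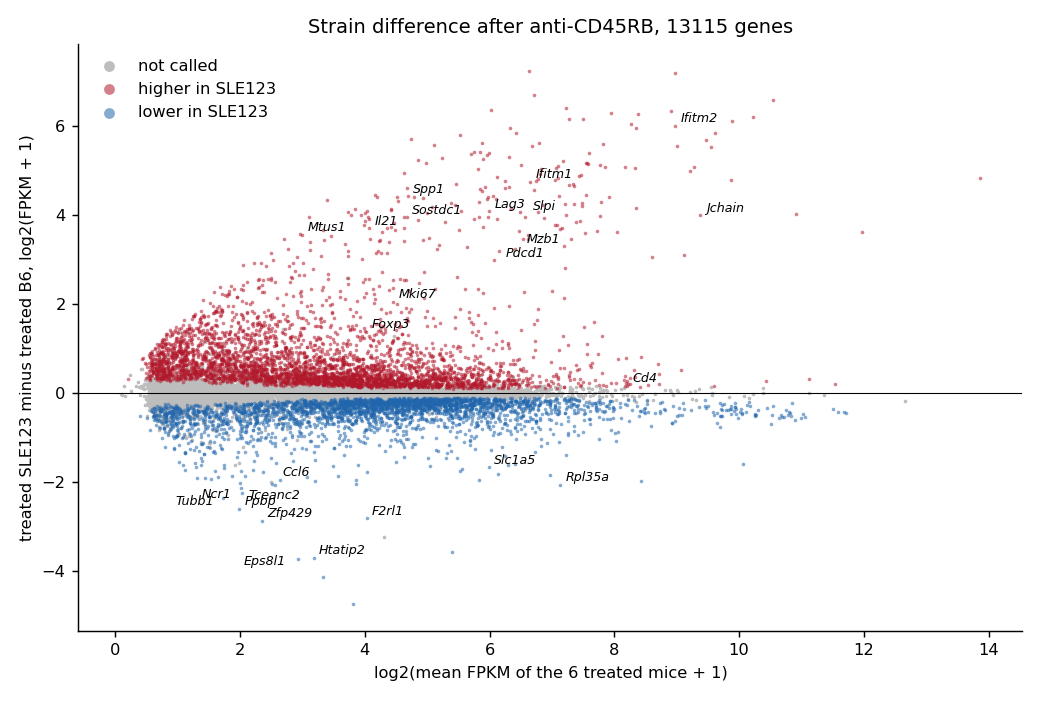
Strain difference after anti-CD45RB for 13115 genes: the x axis is log2 of the mean FPKM of the 6 treated mice plus 1, the y axis is treated SLE123 minus treated B6 on the log2(FPKM + 1) scale, and red and blue points are genes called higher (3881) or lower (2955) in SLE123. Of the genes past 2 on the y axis, 300 were higher and 18 lower, and 110 of the 119 above 4 are immunoglobulin segments.

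Predicted genes, pseudogenes and receptor segments left out, the largest rise was that of Ifitm2, an interferon-induced transmembrane protein gene at chromosome 7, 140954837 to 140955987 (mm10). Ifitm2 was at 1018, 971 and 981 FPKM in the SLE123 mice and 12.1, 18 and 13.9 FPKM in the B6 mice, a difference of 6.0 ± 0.13 (adjusted p = 8.73e-07). Its neighbor Ifitm1 was at 196, 187 and 193 FPKM against 6.27, 6.37 and 5.86 FPKM, a difference of 4.75 ± 0.04 (adjusted p = 3.13e-08). Both genes were high in all 3 SLE123 mice and low in all 3 B6 mice. Ifitm2 shares 38.1% of its 31-base words with the annotated copy Gm45717, and Ifitm1 shares 12.2% with the pseudogene Gm7676, which was itself at 48.2 to 54.2 FPKM in treated SLE123 mice and listed at 0 in the B6 mice. The assignment of fragments among these copies is therefore uncertain, and reads from NZM2410 alleles were mapped to the B6 reference.

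The other large rises were Spp1, which encodes the secreted phosphoprotein osteopontin (4.42 ± 0.27), the inhibitory receptor gene Lag3 (4.08 ± 0.21), the antibody joining chain gene Jchain (3.99 ± 0.39), the protease inhibitor gene Slpi (3.95 ± 0.45), the secreted antagonist gene Sostdc1 (3.95 ± 0.30), the Tfh cytokine gene Il21 (3.70 ± 0.22), the plasma cell gene Mzb1 (3.64 ± 0.40) and Mtus1 (3.55 ± 0.09). The spread among the SLE123 mice was wide for Jchain, Slpi and Mzb1, with mouse 1 lowest in each: Slpi was at 93.2, 213 and 227 FPKM. Mtus1 was at 14.8, 13.7 and 12.7 FPKM in SLE123 and 0.327, 0.168 and 0.272 FPKM in B6. The largest falls, predicted genes, pseudogenes and receptor segments again left out, were those of Eps8l1 (−3.74 ± 0.17), Htatip2 (−3.71 ± 0.06), Zfp429 (−2.88 ± 0.09), the protease-activated receptor gene F2rl1 (−2.82 ± 0.08), the platelet chemokine gene Ppbp (−2.61 ± 0.23), the platelet tubulin gene Tubb1 (−2.35 ± 0.25), the NK cell receptor gene Ncr1 (−2.24 ± 0.12), Tceanc2 (−2.14 ± 0.07), the chemokine gene Ccl6 (−2.07 ± 0.26) and the ribosomal protein gene Rpl35a (−2.06 ± 0.05). These 20 genes were picked only from genes called without overlap between the strains. The groups did not overlap for 61.8% of all genes. Zfp429 shares 33.3% of its 31-base words with Rsl1, so its assignment is uncertain, as is that of Mzb1, which shares 76.2% with the gene model SPATA24. Spp1 shares 10.2% with the predicted gene Gm42793.

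**Figure D2:**
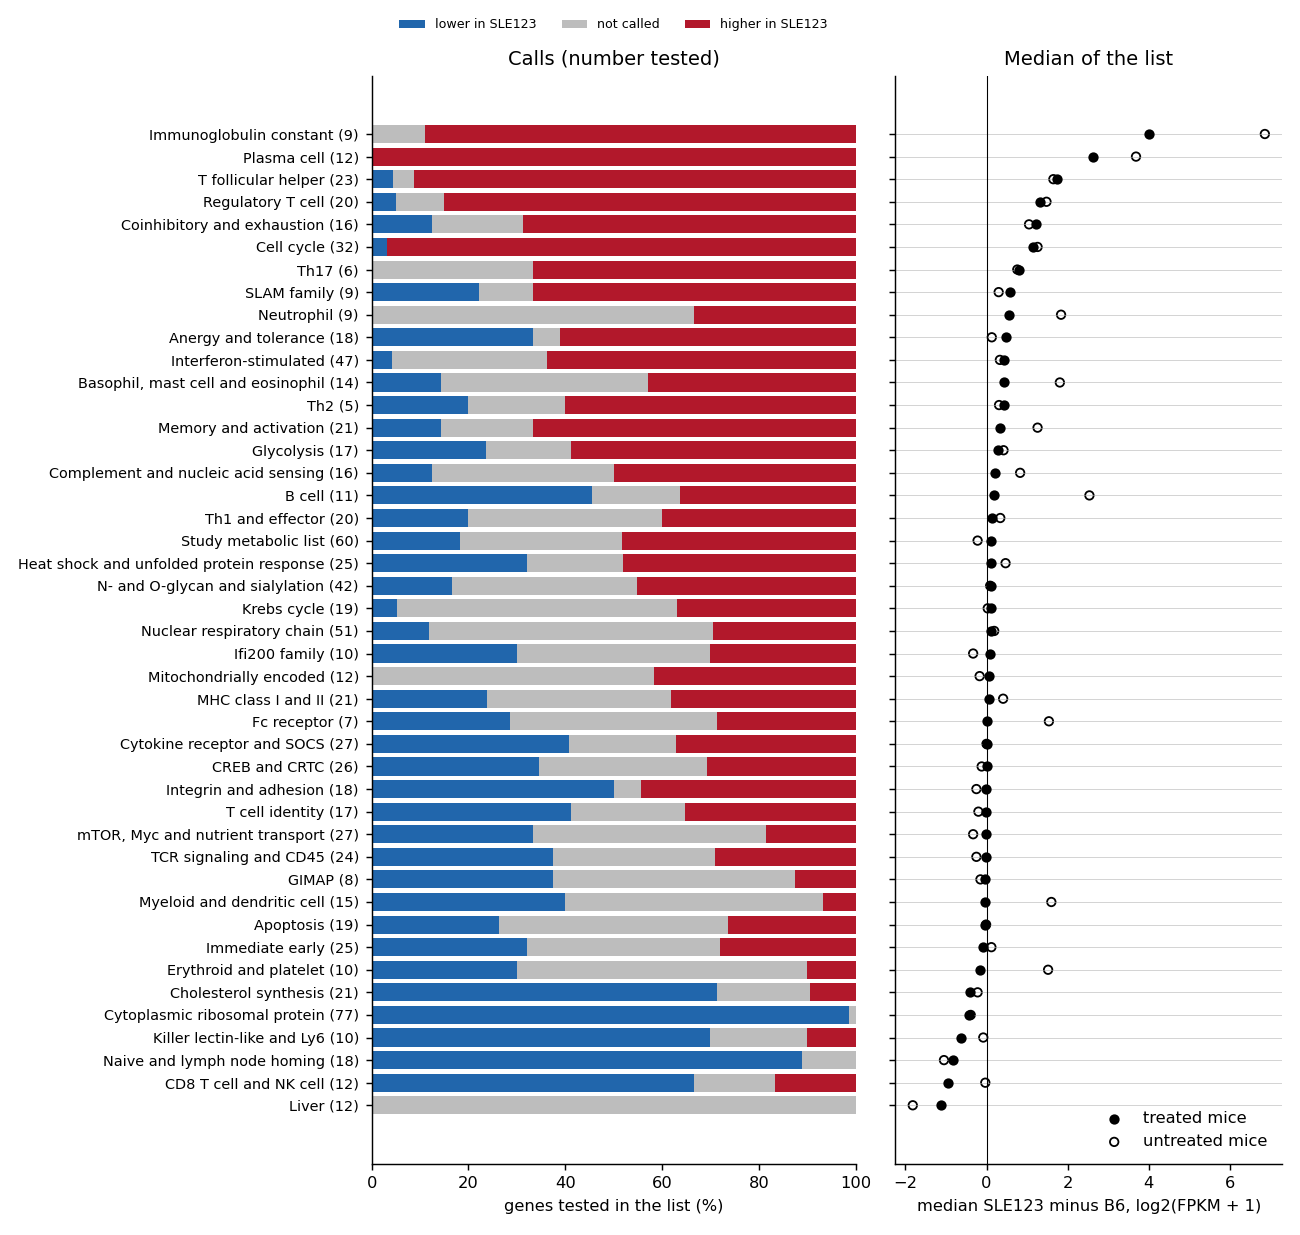
Left, the percent of tested genes of each of 44 gene lists that were called lower (blue), not called (gray) or called higher (red) in treated SLE123 against treated B6; right, the median difference of each list in treated (filled) and untreated (open) mice on the log2(FPKM + 1) scale. The T follicular helper, regulatory T cell, coinhibitory and cell cycle lists had medians above 1 in treated mice and sat close to their untreated medians, whereas the medians of the B cell, basophil and myeloid lists were lower in treated mice than in untreated mice.

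Genes of T follicular helper cells were higher in treated SLE123 mice nearly throughout the list. Of 23 tested, 21 rose and 1 fell, with a median of 1.73, and without mouse 1 the counts were the same and the median 1.84. Ascl2, a transcription factor that starts the Tfh program, was at 6.04, 9.02 and 8.59 FPKM in the SLE123 mice and 0.183, 0.19 and 0.111 FPKM in the B6 mice, a difference of 2.92 ± 0.14 (adjusted p = 2.9e-05). Pdcd1, which encodes the inhibitory receptor PD-1, was at 103, 139.8 and 137 FPKM against 12.6, 15.5 and 10.8 FPKM, a difference of 3.19 ± 0.16 (adjusted p = 3.04e-05). The lowest SLE123 value of either gene was that of mouse 1, and it lay far above the highest B6 value. Il21, the cytokine by which Tfh cells act on germinal center B cells, was at 24.1, 33.9 and 32.4 FPKM against 1.03, 2.27 and 1.01 FPKM (adjusted p = 4.88e-05). Slamf6, a SLAM receptor of the T and B cell contact, was at 142, 174 and 170.3 FPKM against 50.4, 53.6 and 50.4 FPKM, a difference of 1.63 ± 0.08 (adjusted p = 2.85e-05). Tox, a nuclear factor of chronically stimulated T cells, was at 33.9, 39.2 and 41.1 FPKM against 11.5, 10.7 and 11.2 FPKM, a difference of 1.68 ± 0.08 (adjusted p = 2.27e-05).

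The defining Tfh genes Bcl6 and Cxcr5 are added here, chosen after their values were seen. Bcl6, the lineage repressor, was at 17.4, 22.7 and 21.4 FPKM against 5.57, 5.92 and 4.94 FPKM, a difference of 1.73 ± 0.11 (adjusted p = 5.94e-05). Cxcr5, the receptor that leads cells into the B cell follicle, was at 36, 42.1 and 39.7 FPKM against 5.9, 7.14 and 4.65 FPKM, a difference of 2.56 ± 0.13 (adjusted p = 3.47e-05). The member that fell was the chemokine receptor gene Cxcr4 (−0.23 ± 0.05, adjusted p = 0.0095). B cells also express some genes of the Tfh list, such as Bcl6, Cxcr5 and the coactivator gene Pou2af1 (2.71 ± 0.21). Immunoglobulin genes took 4.38% of fragments in treated SLE123 and 0.220% in treated B6 mice, and the part of B lineage cells in the Tfh list was not tested.

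Treg genes were higher as well, with 17 of 20 tested called higher, 1 called lower and a median of 1.33 (1.32 without mouse 1, with the same counts). Foxp3, the lineage factor of Tregs on the X chromosome, was at 22.9, 21.9 and 22.2 FPKM in the SLE123 mice and 8.54, 7.87 and 7.65 FPKM in the B6 mice, a difference of 1.37 ± 0.05 (adjusted p = 1.38e-05). The mice of each strain lay close to one another, and the strains did not overlap. Tigit, an inhibitory receptor gene of Tregs and Tfh cells, was at 136, 161 and 161 FPKM against 13.6, 20.4 and 12.9 FPKM, a difference of 3.23 ± 0.17 (adjusted p = 3.47e-05). Nrp1, a semaphorin coreceptor of thymus-derived Tregs, was at 40.3, 51.7 and 53.5 FPKM against 8.62, 7.72 and 7.26 FPKM, a difference of 2.47 ± 0.11 (adjusted p = 2.5e-05). Ikzf2, which encodes the transcription factor Helios, was at 34.1, 42 and 43.1 FPKM against 10.4, 10.8 and 10.3 FPKM, a difference of 1.81 ± 0.09 (adjusted p = 2.92e-05). Il10, the gene of the anti-inflammatory cytokine on chromosome 1, was at 10.2, 11.4 and 11.8 FPKM against 0.675, 1.45 and 0.953 FPKM, a difference of 2.60 ± 0.14 (adjusted p = 4e-05). Il2ra, the gene of CD25, was not called. It was at 9.44, 6.18 and 6.67 FPKM against 5.61, 6.24 and 4.08 FPKM with overlapping groups (0.41 ± 0.18, adjusted p = 0.0956), and was added after its values were seen because the methods mention a CD25 sort. Klrg1, a receptor of terminally differentiated T cells and NK cells, was the member that fell (−0.65 ± 0.11, adjusted p = 0.00259).

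Coinhibitory genes also had a median above 1. Of 16 tested, 11 rose and 2 fell, and the median was 1.21 (1.26 without mouse 1). Lag3, which binds MHC class II, was at 94.4, 125 and 139 FPKM in the SLE123 mice and 4.42, 8.09 and 6.06 FPKM in the B6 mice, the largest difference of the list at 4.08 ± 0.21 (adjusted p = 3.47e-05). Nt5e, which encodes the ecto-enzyme CD73 that makes adenosine, was at 70.9, 86.2 and 82.4 FPKM against 14.4, 17.3 and 13.5 FPKM, a difference of 2.34 ± 0.11 (adjusted p = 2.37e-05). The falls were those of Vsir (−0.26 ± 0.03) and Cd244a. Cd244a, a SLAM-family receptor gene of chromosome 1, was at 0.253, 0.212 and 0.261 FPKM in SLE123 and 1.92, 1.72 and 1.79 FPKM in B6 (adjusted p = 8.9e-05). The list of anergy and tolerance genes was mixed, with 11 of 18 higher and 6 lower. Egr2, a transcription factor induced in anergic T cells, was at 14.2, 17.2 and 18.7 FPKM against 2.83, 4.22 and 3.23 FPKM, a difference of 2.0 ± 0.14 (adjusted p = 8.11e-05), and the ubiquitin ligase gene Rnf128 (GRAIL) was at 5.01, 6.06 and 5.99 FPKM against 0.911, 1.16 and 0.67 FPKM. The calcium-responsive factor gene Nfatc1 also rose (1.11 ± 0.07).

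**Figure D3:**
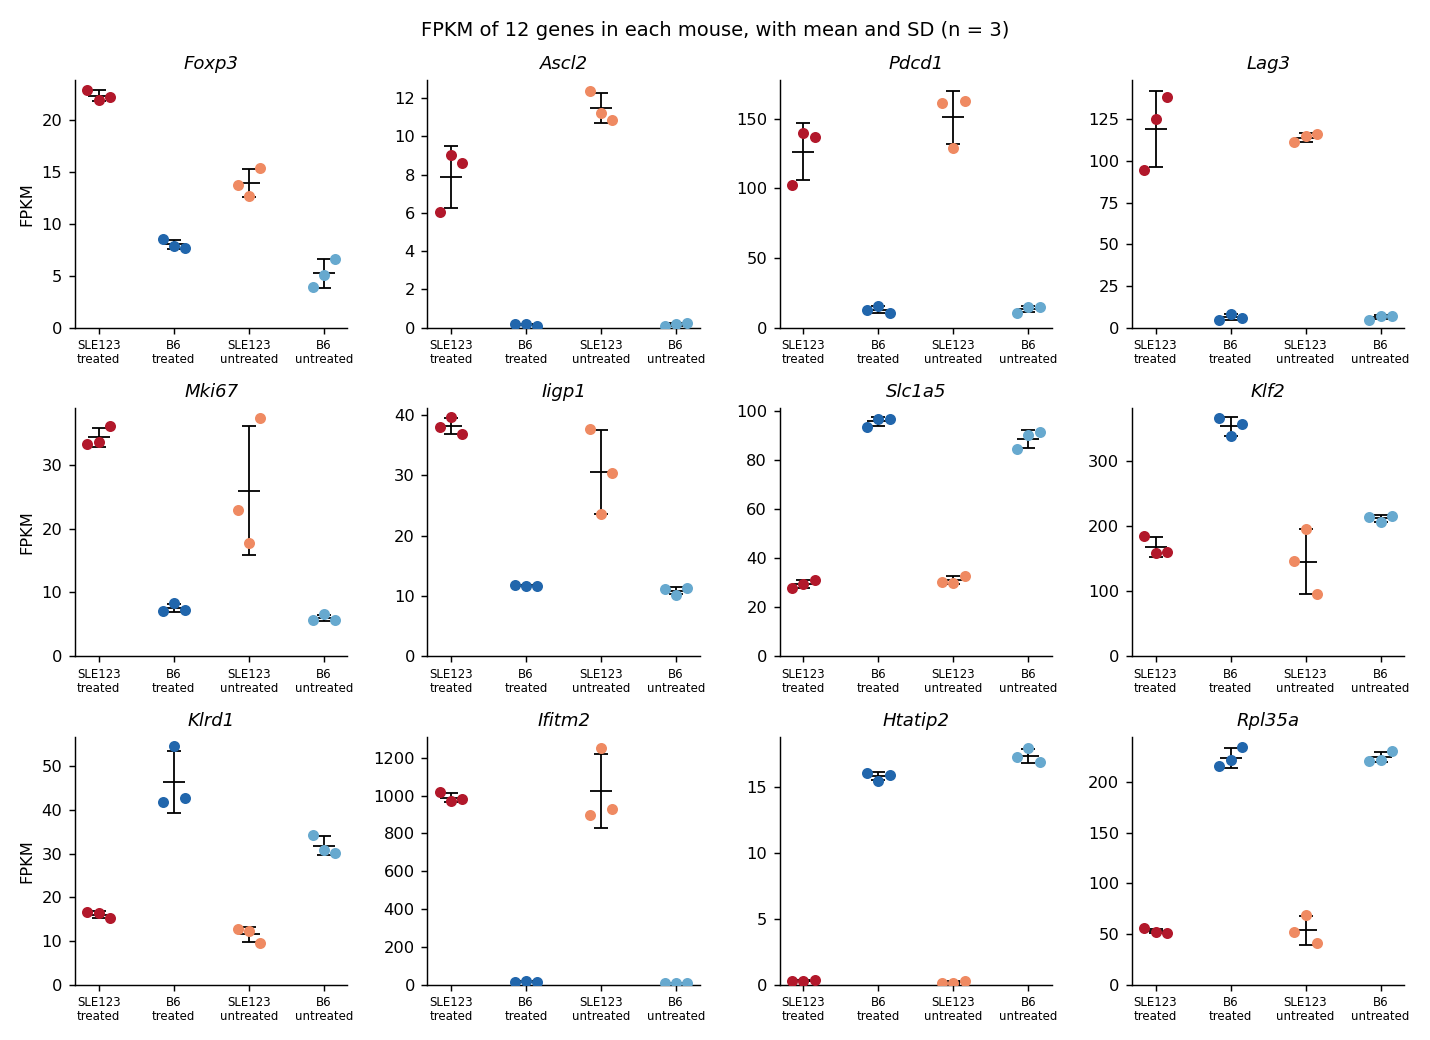
FPKM of 12 genes, 1 point per mouse, with the mean and SD of each group of 3 as bars; the y axes start at 0. Foxp3, Ascl2, Pdcd1, Lag3, Mki67, Iigp1 and Ifitm2 were higher, and Slc1a5, Klf2, Klrd1, Htatip2 and Rpl35a lower, in all 3 treated SLE123 mice than in all 3 treated B6 mice.

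Proliferation genes rose together. Of 32 cell cycle genes, 31 were called higher and 1, the cyclin-dependent kinase inhibitor gene Cdkn1b, lower (−0.32 ± 0.04, adjusted p = 0.00109), and the median was 1.14 (1.15 without mouse 1). Mki67, the Ki-67 antigen of cycling cells, was at 33.3, 33.6 and 36 FPKM against 7.0, 8.28 and 7.28 FPKM, a difference of 2.05 ± 0.07 (adjusted p = 7.77e-06). Top2a, the topoisomerase of replicating cells, was at 52.4, 46.4 and 47.8 FPKM against 12.1, 14.1 and 12.5 FPKM (adjusted p = 1.38e-05). Rrm2, a subunit of ribonucleotide reductase, and Ccnb1, cyclin B1, rose by 1.83 and 1.66. The replication genes Mcm2 and Pcna, added after their values were seen, rose by less (0.48 and 0.26). Markers of plasma cells, given below, moved with these genes, and the part of such cells in them was not tested.

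Naive and homing genes were lower. Of 18 tested, 16 fell and 2 were not called, with a median of −0.83 and of −0.93 without mouse 1. Klf2, the factor that keeps T cells quiescent and recirculating, was at 185, 158 and 160.2 FPKM in the SLE123 mice and 366, 338 and 357 FPKM in the B6 mice, a difference of −1.07 ± 0.07 (adjusted p = 6.39e-05). Bach2, a repressor of effector genes on chromosome 4, was at 8.31, 6.42 and 5.99 FPKM against 17.8, 16.3 and 16.7 FPKM, a difference of −1.19 ± 0.11 (adjusted p = 0.000215). Foxp1 and Igfbp4, both typical of naive T cells, fell by 0.75 and 0.81. The lymph node homing receptor gene Ccr7, added after its values were seen, was at 135, 111 and 102 FPKM against 206, 198 and 219.9 FPKM, with mouse 1 nearest to B6 (−0.85 ± 0.10, adjusted p = 0.000614). The memory and activation list had 14 of 21 genes higher and 3 lower with a median of 0.33 (0.16 on TPM). Its named members were the TNF receptor gene Tnfrsf1b on chromosome 4 (75.3, 78.3 and 81.8 FPKM against 25.1, 28.3 and 25.5 FPKM; 1.54 ± 0.06, adjusted p = 1.17e-05), the integrin β1 gene Itgb1 (1.27 ± 0.07), S100a11 (1.09 ± 0.07) and Anxa2 (0.82 ± 0.06). Its 3 falls included Cd69, the early activation antigen, at 46.5, 49.3 and 44 FPKM against 73.4, 89 and 67 FPKM (−0.69 ± 0.10, adjusted p = 0.00151).

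Genes of the helper lineages did not move as one. Of 20 Th1 and effector genes, 8 rose and 4 fell, and the median, 0.13, turned to −0.04 on TPM. The chemokine receptor gene Cxcr3 (85.2, 86 and 88.3 FPKM against 41.7, 47.7 and 42.9 FPKM) and the cytokine gene Ifng (23.1, 23.3 and 21.5 FPKM against 12.3, 13.3 and 13.7 FPKM; 0.74 ± 0.06, adjusted p = 0.000103) rose. The cytotoxic granule gene Nkg7 fell by 1.06. Of 6 Th17 genes, Batf (1.39 ± 0.11), Il1r1 (0.94 ± 0.14), Ahr (0.84 ± 0.09) and Rora (0.77 ± 0.06) rose. Of 5 Th2 genes, Il4 (0.75 ± 0.21), Ccr4 (0.63 ± 0.09) and Il1rl1 (0.43 ± 0.08) rose, Il4ra fell (−0.96 ± 0.08), and the lineage factor Gata3 was at 29.8, 29.7 and 28.7 FPKM against 28.3, 27.8 and 31 FPKM (adjusted p = 0.787). The immediate early list, which reads recent stimulation and also handling of the cells, was split with 7 genes higher and 8 lower of 25. Klf6 fell by 1.22 and Dusp5 fell by 0.62, whereas Egr2 and Nr4a2 rose (0.97 ± 0.10 for Nr4a2).

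Interferon-stimulated genes were mostly higher in treated SLE123 mice. Of 47 tested, 30 rose, 2 fell and 15 were not called, with a median of 0.44. The counts were 29 and 5 without mouse 1, which had the highest SLE123 value in 42 of the 47, and 20 and 4 on TPM with a median of 0.28. Iigp1, an interferon-γ-inducible GTPase, was at 38.1, 39.7 and 36.9 FPKM in the SLE123 mice and 11.8, 11.7 and 11.6 FPKM in the B6 mice, a difference of 1.63 ± 0.04 (adjusted p = 2.41e-06). The guanylate-binding protein gene Gbp3 was at 25.8, 24.3 and 24.3 FPKM against 8.88, 9.57 and 9.49 FPKM, a difference of 1.32 ± 0.05 (adjusted p = 1.17e-05), and Gbp2 at 66.4, 58.6 and 55.1 FPKM against 28.6, 27.4 and 28.9 FPKM, a difference of 1.05 ± 0.07 (adjusted p = 6.92e-05). Isg20, an exonuclease gene on chromosome 7, rose by 1.56. Not all members followed: Irf7, which amplifies the type I interferon response, fell (40.7, 33.1 and 34 FPKM against 49, 49.1 and 43.7 FPKM; −0.39 ± 0.09, adjusted p = 0.00897), as did Slfn1 (−0.39 ± 0.09), both added after their values were seen.

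Promoters of these genes often hold the interferon-stimulated response element, to which STAT and IRF proteins bind. The letters GAAANNGAAA were searched on both strands, overlaps counted, in the RefSeq promoters of GRCm38.p6 from 250 bases before to 50 bases after each gene's start. Of the 47 list members, 34 matched the promoter table by symbol, and 22 of these (64.7%) held the motif, against 1131 of 32851 promoters of all genes (3.44%) and 3.81% of the 9313 tested genes with a promoter. The motif was held by 17 of 21 members that were called higher and by 5 of the 13 others. A match is a description of letters and does not show binding. The promoters of Gbp3 (chr3:142559794-142560093, plus strand, 2 overlapping matches), Gbp2 (chr3:142620413-142620712, plus strand, 1 match) and Isg15 (chr4:156200769-156201068, minus strand, 3 matches) are printed because they show the motif in a called member with an overlapping pair, with a lone match and with a longer run. Capitals mark the matched bases.
Gbp3: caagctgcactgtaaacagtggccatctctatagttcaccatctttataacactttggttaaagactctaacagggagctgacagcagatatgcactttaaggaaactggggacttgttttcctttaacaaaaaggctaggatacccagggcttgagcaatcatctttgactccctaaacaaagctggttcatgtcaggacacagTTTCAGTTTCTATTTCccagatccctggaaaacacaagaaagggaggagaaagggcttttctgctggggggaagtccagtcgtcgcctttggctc
Gbp2: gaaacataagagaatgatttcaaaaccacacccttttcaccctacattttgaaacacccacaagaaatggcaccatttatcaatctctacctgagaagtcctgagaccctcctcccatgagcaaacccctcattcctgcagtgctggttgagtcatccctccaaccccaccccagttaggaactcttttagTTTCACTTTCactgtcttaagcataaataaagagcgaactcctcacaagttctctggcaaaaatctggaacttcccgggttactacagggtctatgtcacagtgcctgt
Isg15: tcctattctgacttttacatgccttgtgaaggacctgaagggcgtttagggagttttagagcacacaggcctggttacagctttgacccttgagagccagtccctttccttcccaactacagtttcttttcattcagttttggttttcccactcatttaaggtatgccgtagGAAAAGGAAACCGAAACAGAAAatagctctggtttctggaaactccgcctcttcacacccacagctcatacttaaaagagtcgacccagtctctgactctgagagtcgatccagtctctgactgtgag

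The matches of Gbp3 and Gbp2 lie on the reverse strand as TTTCNNTTTC, and those of Isg15, a ubiquitin-like modifier gene on chromosome 4, on the printed strand. Isg15 itself was at 38.7, 35.7 and 31.9 FPKM against 23, 20.8 and 17.7 FPKM, a difference of 0.76 ± 0.11 (adjusted p = 0.00116), with mouse 1 highest among the SLE123 mice.

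Receptors and signaling genes between the surface and the nucleus differed in both directions. Of 27 cytokine receptor and SOCS genes, 10 rose and 11 fell, which became 5 and 11 on TPM. Jak3, the kinase of the common γ-chain receptors, was at 140.4, 159 and 167 FPKM against 52.3, 54.1 and 50.7 FPKM, a difference of 1.55 ± 0.07 (adjusted p = 1.91e-05), and Stat3 rose by 0.43. The receptor genes Il4ra (39, 31.9 and 31.9 FPKM against 68.5, 66.7 and 66.9 FPKM) and Il6ra (−0.49 ± 0.06) fell. Of 24 T cell receptor signaling and CD45 genes, 7 rose and 9 fell, which became 6 and 14 on TPM. The Src kinase gene Fyn (0.47 ± 0.04), the paracaspase gene Malt1 (0.78 ± 0.05) and Hnrnpll, a factor of CD45 exon skipping, rose, the last from 16.2, 15.1 and 14.5 FPKM in B6 to 26.7, 29.3 and 29.9 FPKM in SLE123 (0.86 ± 0.06, adjusted p = 8.34e-05). Lat, the adaptor of the receptor signal, fell by 0.44. FPKM per gene holds no isoforms, so the share of CD45RB among Ptprc transcripts was not analysed here.

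Of 26 genes of CREB and CRTC signaling, 8 rose and 9 fell, with a median at 0.00, and 3 and 12 were called on TPM. Pde3b, a cyclic nucleotide phosphodiesterase gene on chromosome 7, fell by 1.16, and Camk2d (0.72 ± 0.05), Prkar1a (0.30 ± 0.04) and Nfatc1 rose. Adhesion genes were called for 17 of 18, 8 higher and 9 lower. Itgb3, the integrin β3 gene, was at 23.8, 18.4 and 18.2 FPKM against 57, 52.8 and 61.4 FPKM (−1.46 ± 0.11, adjusted p = 0.000101), whereas Itgb1, Itgal (0.68 ± 0.05) and Itgav (1.15 ± 0.08) rose. Among 19 apoptosis genes, 5 rose and 5 fell (52.6% called beside 52.1% of all genes), which became 2 and 9 both on TPM and after quantile normalization. Bcl2a1d rose by 1.55, and the BH3-only gene Bbc3 (Puma) fell by 1.55, Mcl1 fell by 0.39 and Bcl2 fell by 0.38. Of 8 GIMAP genes, GTPases of lymphocyte survival, 3 fell and 1 rose, 50% called and no more than the background, and Gimap6 fell by 0.56.

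T cells raise nutrient uptake and glycolysis when they are activated, and the study examined metabolic genes after treatment. Slc1a5, the glutamine transporter gene on chromosome 7, was at 27.7, 29.3 and 31 FPKM in the SLE123 mice and 93.4, 96.7 and 96.7 FPKM in the B6 mice, a difference of −1.67 ± 0.05 (adjusted p = 3.7e-06). Slc7a5, a subunit of the large neutral amino acid transporter, moved the other way (25.3, 25.5 and 27 FPKM against 15.8, 13.7 and 15.2 FPKM; 0.76 ± 0.06, adjusted p = 0.000135). Hif1a, which drives glycolytic genes under low oxygen and in activated T cells, was at 70.9, 83.3 and 77.5 FPKM against 25.2, 25.8 and 24.1 FPKM, a difference of 1.59 ± 0.06 (adjusted p = 1.56e-05). Pik3ip1, an inhibitor of PI3 kinase that is high in resting T cells, fell by 1.27. The glycolysis list held 10 higher and 4 lower genes of 17 and a median of 0.28 (0.10 on TPM), led by Pgam1 (1.01 ± 0.05), Tpi1 (66.8, 70.8 and 74.8 FPKM against 29.8, 37.1 and 33 FPKM; 1.07 ± 0.08), Gapdh (0.65 ± 0.05) and Pgk1 (0.39 ± 0.04).

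The mitochondrial lists moved little. Called were 42.1% of Krebs cycle, 41.2% of nuclear respiratory chain and 41.7% of mitochondrially encoded genes, beside 52.1% of all genes. Of 19 Krebs cycle genes, 7 rose and 1 fell with a median of 0.10, which turned to −0.08 on TPM with 1 called higher and 2 lower. Fh1, the fumarase gene of chromosome 1, was at 22.1, 23.2 and 23 FPKM against 14.1, 15.9 and 14.2 FPKM (0.60 ± 0.06, adjusted p = 0.000247). Of 51 nuclear genes of the respiratory chain, 15 rose and 6 fell with a median of 0.10, which also turned to −0.08 on TPM with 1 called higher and 13 lower. After quantile normalization, 5 were called higher and 11 lower. Ndufb9 (0.33 ± 0.04), Atp5j (0.27 ± 0.04) and Ndufa9 (0.21 ± 0.04) rose and Uqcrh fell by 0.28. Of 12 mitochondrially encoded genes, 5 rose, among them mt-Nd5 (647, 627 and 605 FPKM against 474, 419.9 and 426 FPKM; 0.51 ± 0.06, adjusted p = 0.000532), mt-Nd6 (0.42 ± 0.07) and mt-Cytb (0.27 ± 0.05). The median of that list was 0.06, −0.12 after quantile normalization, −0.10 on TPM and −0.06 without mouse 1 (5 higher and 4 lower), and mt-Nd4 (0.18 ± 0.05) turned to −0.10 after quantile normalization.

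The study chose 60 metabolic genes for their fall in treated B6 mice, and treated B6 mice are the reference here, so the list is not independent evidence of its direction. Of the 60, 29 were called higher and 11 lower in treated SLE123, and the median of 0.12 turned to −0.05 on TPM, with 12 called higher and 17 lower. After quantile normalization, 18 were called in each direction. In untreated mice, 1 was higher and 24 were lower, with a median of −0.22. Examples in treated mice were the α-mannosidase gene Man2a1 (22.2, 21.2 and 22.8 FPKM against 14.4, 13.7 and 12.3 FPKM; 0.67 ± 0.06), the mitochondrial folate enzyme gene Mthfd2 (34.8, 33.9 and 32.8 FPKM against 22.6, 19.6 and 20.6 FPKM; 0.67 ± 0.06) and Pik3c2a (0.62 ± 0.06) among the rises, and the O-glycan initiating enzyme gene Galnt6 (59.3, 54.2 and 54.2 FPKM against 89.3, 80.1 and 85.3 FPKM; −0.59 ± 0.06) among the falls.

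Glycan genes bear on CD45RB, since the antibody reads a glycosylated segment of CD45. Of 42 tested, 19 rose and 7 fell, and the median of 0.11 turned to −0.06 on TPM, with 13 called higher and 9 lower. Fut8, the core fucosyltransferase of N-glycans, was at 24.2, 30.2 and 30.6 FPKM against 10.6, 9.31 and 9.4 FPKM, a difference of 1.44 ± 0.10 (adjusted p = 7.75e-05). The oligosaccharyltransferase subunits Stt3a (0.56 ± 0.04) and Rpn2 (0.47 ± 0.04) rose. Galnt10, which starts O-glycans, was at 23.2, 17.8 and 18.3 FPKM against 48.5, 46.1 and 52.2 FPKM, a difference of −1.27 ± 0.10 (adjusted p = 0.000136). Fut8 was higher and Galnt10 lower in all 3 SLE123 mice than in all 3 B6 mice.

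Ribosomal protein genes were lower. Of 77 cytoplasmic ribosomal protein genes, 76 fell and 1 was not called, with a median of −0.44 (−0.49 without mouse 1), and 64 were called lower after quantile normalization. Rps28 was at 413, 381 and 383 FPKM against 607, 601 and 619 FPKM, a difference of −0.63 ± 0.05. Rps20 was at 205, 188 and 188 FPKM against 292, 284 and 300.3 FPKM, a difference of −0.59 ± 0.05. Rpl23a was at 51.7, 48.1 and 47.7 FPKM against 75.4, 77 and 81.4 FPKM, a difference of −0.65 ± 0.05, and none of these 3 genes overlapped between the strains. Rpl35a exceeded the others of the list at −2.06 ± 0.05 (55.5, 52.2 and 51.4 FPKM against 216, 221 and 235 FPKM). At least 3 pseudogenes each hold 240 of the 2828 31-base words of its longest annotated transcript (8.5%). Sharing over any shorter transcript was not measured, so the assignment of Rpl35a fragments is uncertain. Cholesterol synthesis genes were lower, 15 of 21 falling and 2 rising with a median of −0.41. Srebf2, the factor that controls the pathway, was at 62.1, 55.3 and 55 FPKM against 81.8, 80.9 and 84.2 FPKM (−0.51 ± 0.05, adjusted p = 0.000358). Mvd, an enzyme of the pathway, fell by 0.83.

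The heat shock and unfolded protein list was split. Of 25 genes, 12 rose and 8 fell, and the median of 0.11 turned to −0.07 on TPM, with 11 called higher and 10 lower. The endoplasmic reticulum chaperone genes Calr (335, 371 and 389.7 FPKM against 207, 223 and 208 FPKM; 0.78 ± 0.06, adjusted p = 0.00015) and Pdia3 (0.54 ± 0.04) rose, and the cytosolic cochaperone genes Dnajb1 (45.7, 42.1 and 44.5 FPKM against 95.6, 80.4 and 84.1 FPKM; −0.96 ± 0.07, adjusted p = 9.19e-05) and Dnaja1 (−0.74 ± 0.05) fell. Secretory chaperones are abundant in plasma cells, whose markers, given below, also rose, and the part of such cells was not tested.

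The congenic chromosomes did not stand out by the share of genes called. On chromosomes 1, 4 and 7, 55%, 49.2% and 54.8% of tested genes were called, and without receptor segments the other nuclear chromosomes lay between 47.2% and 57.9%. A call with a 2-fold difference was made for 8.3%, 5.9% and 8.6% of tested genes on chromosomes 1, 4 and 7. Without receptor segments, the others lay between 3.7% and 8.2%, so chromosomes 7 and 1 had the highest shares by this measure. These shares were not tested. The 10-Mb windows with most calls were 170 to 180, 130 to 140 and 80 to 90 Mb on chromosome 1 (43 of 77, 40 of 72 and 36 of 56 tested), 130 to 140, 150 to 160 and 120 to 130 Mb on chromosome 4 (58 of 127, 47 of 80 and 43 of 93), and 40 to 50, 20 to 30 and 120 to 130 Mb on chromosome 7 (69 of 105, 67 of 122 and 65 of 129). In the same order, 55.8%, 55.6% and 64.3%, 45.7%, 58.8% and 46.2%, and 65.7%, 54.9% and 50.4% were called, beside 52.1% of all genes. These windows were ranked by the number of calls, which also rises with the number of genes tested. The genes with the largest difference in them were Sccpdh (2.86 ± 0.13), Il10, Ecel1 (2.38 ± 0.19), the alkaline phosphatase gene Alpl (1.70 ± 0.23), the OX40 gene Tnfrsf4 (1.82 ± 0.11), Ndufs5 (−2.04 ± 0.11), Htatip2, Lgals7 (2.68 ± 0.10) and Itgax. Htatip2 (chromosome 7, 49759115 to 49773975, mm10) was at 0.243, 0.29 and 0.335 FPKM in SLE123 and 16.1, 15.5 and 15.9 FPKM in B6 (adjusted p = 4.27e-07). Sccpdh (chromosome 1, 179668210 to 179687189) was at 9.91, 11.2 and 12.2 FPKM against 0.725, 0.909 and 0.401 FPKM, and Ndufs5, a complex I subunit gene that shares 36.0% of its 31-base words with the copy BC002163, was at 5.33, 4.06 and 4.57 FPKM against 20.5, 25.4 and 21 FPKM.

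The SLAM and Ifi200 families of the Sle1 region on chromosome 1 were mixed. The Fc receptor and complement lists, which also hold genes of other chromosomes, were mixed as well. Of 9 SLAM family genes and their adaptors, 6 rose and 2 fell, with Slamf6 and Slamf7 (0.79 ± 0.06) among the rises, as well as the adaptor gene Sh2d1a of the X chromosome (0.61 ± 0.04). Of 10 Ifi200 family genes, 3 rose and 3 fell, and the direction of the median flipped with the scaling. Ifi204 was at 6.01, 6.57 and 6.39 FPKM against 1.34, 1.65 and 0.844 FPKM (1.70 ± 0.14, adjusted p = 0.000132), the DNA sensor gene Aim2 at 24.6, 26.9 and 24.8 FPKM against 13.4, 15.1 and 11.5 FPKM (0.89 ± 0.09), and Ifi211 rose and Ifi214 fell (1.29 ± 0.11 and −0.57 ± 0.14). Of 7 Fc receptor genes, Fcrla and Fcrl1 rose (1.61 ± 0.20 and 1.14 ± 0.11) and Fcer1g and Fcgr3 fell (−1.64 ± 0.15 and −0.79 ± 0.24), all of which are genes typical of other cells. Fcrl1 lies on chromosome 3. Fcgr3 was not called without mouse 1 (adjusted p = 0.077). Of 16 complement and nucleic acid sensing genes, 8 rose and 2 fell, which became 4 and 2 without mouse 1 and 4 and 3 on TPM and after quantile normalization. Among them, the chromosome 14 gene Dnase1l3, of a nuclease of extracellular DNA, was at 3.14, 3.03 and 2.84 FPKM against 0.326, 0.515 and 0.351 FPKM (1.52 ± 0.09, adjusted p = 5.18e-05), and Cd55, a complement regulator of chromosome 1, fell by 1.03.

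A further set was picked after the values were seen: 31 genes at or below 0.6 FPKM in all 6 mice of one strain, treated or not, and at or above 3 FPKM in all 6 of the other. Near silence in B6 held for 24 and near silence in SLE123 for 7. Of the 31, 11 lay on chromosomes 1, 4 and 7, which hold 19.0% of the tested genes. Eps8l1 on chromosome 7 was at 0.0565, 0.0673 and 0 FPKM in treated SLE123 and 17.2, 12.2 and 10.3 FPKM in treated B6 mice. Iglon5 on chromosome 7 was at 6.69, 13.3 and 12.8 FPKM against 0.0845, 0.0233 and 0.0454 FPKM. The carnitine palmitoyltransferase gene Cpt1c on chromosome 7 was at 5.74, 7.01 and 9.06 FPKM against 0.106, 0.0656 and 0.0639 FPKM. BC147527 on chromosome 13 was at 26, 28.1 and 23.6 FPKM in B6 and listed at 0 in every SLE123 mouse, and the pseudogene Crry-ps on chromosome 8 was at 20.4, 17.7 and 19.3 FPKM in SLE123 and listed at 0 in every B6 mouse. Crry-ps shares 49.8% of its 31-base words with the complement receptor gene Cr1l. Ferritin light chain showed such sharing when fragments were scaled to library depth alone (without transcript length): Ftl1 stood at 132, 135 and 131 in treated SLE123 and 524, 543 and 524 in treated B6 mice, while its copy Ftl2-ps stood at 110, 108 and 107 against 0.442, 0.0611 and 0.0595. The sum over Ftl1 and 3 copies was 247 to 251 against 526 to 545, so the drop of Ftl1 (−1.99 ± 0.04) was smaller over the family.

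Markers of some other cells moved with the strain. The plasma cell list rose for all 12 members with a median of 2.63 (2.89 without mouse 1), and its summed level was 21300 to 46500 FPKM in SLE123 and 1260 to 2610 FPKM in B6 mice. Sdc1, the syndecan of plasma cells, was at 8.35, 15.6 and 15.6 FPKM against 0.864, 1.16 and 0.49 FPKM, a difference of 2.92 ± 0.25. Tnfrsf17 (the receptor BCMA) was at 3.06, 4.3 and 3.81 FPKM against 0.271, 0.225 and 0.146 FPKM. Irf4, a factor of plasma cell and T cell activation, was at 24.9, 41 and 40.7 FPKM against 5.85, 6.98 and 5.3 FPKM. Mouse 1 had the lowest value of each among the SLE123 mice, and all SLE123 values lay above all B6 values. Immunoglobulin genes took 4.38% ± 1.62 (SD, n = 3) of fragments in SLE123 and 0.220% ± 0.101 in B6 mice (exact permutation test, two-sided, p = 0.1, the smallest that 20 splits allow). Of 9 immunoglobulin constant genes, 8 rose with a median of 4.01, among them Igkc (15736, 34695 and 35329 FPKM against 825, 1676 and 612 FPKM) and Ighm (4375, 8799 and 9189 FPKM against 499, 706 and 534 FPKM).

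B cell genes were mixed. Of 11 B cell genes, 4 rose and 5 fell, with a summed level of 46.5 to 69.4 FPKM in SLE123 and 34.3 to 44.6 FPKM in B6 mice, and the median of 0.18 turned to −0.02 after quantile normalization. Spib, a transcription factor gene of B cells, fell by 0.94, whereas Fcrla and Cd22 rose (0.85 ± 0.13 for Cd22). The list of CD8 T cell and NK cell genes had 8 falls and 2 rises among 12 and a median of −0.94, with summed levels of 134 to 156 FPKM in SLE123 and 203 to 241 FPKM in B6. Klrd1 (CD94) was at 16.5, 16.3 and 15.1 FPKM against 41.8, 54.5 and 42.8 FPKM (−1.47 ± 0.10, adjusted p = 7.98e-05), Ncr1 (NKp46) at 0.636, 0.391 and 0.255 FPKM against 5.42, 5.35 and 6.4 FPKM, and Klra7 at 1.83, 1.39 and 1.38 FPKM against 6.41, 11 and 9.53 FPKM. The marker Cd8a had a mean below 0.5 FPKM and was not tested. Of 10 killer lectin-like and Ly6 genes, 7 fell, among them Ly6c1 (−1.85 ± 0.20), and Ly6a (Sca-1) rose (1.27 ± 0.14).

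Of 15 myeloid and dendritic cell genes, 6 fell and 1 rose, 46.7% called and less than the 52.1% of all genes. The summed levels were 134 to 149 FPKM in SLE123 and 151 to 233 FPKM in B6. Itgax (CD11c) was at 0.279, 0.249 and 0.283 FPKM against 2.81, 2.72 and 3.29 FPKM and Itgam (CD11b) at 1.52, 1.12 and 0.999 FPKM against 5.6, 3.61 and 4.59 FPKM, and 12.7% of the 31-base words of Itgax occur in Itgad. Mpeg1 and Flt3 fell by 0.96 and 0.82. Of 21 MHC class I and II genes, 8 rose and 5 fell with a median of 0.05. On TPM, 3 were called higher and 7 lower, with a median of −0.13. Among the genes of this list, the MHC class II genes H2-Aa (13.1, 14.2 and 14.7 FPKM against 36.1, 35.7 and 26.4 FPKM; −1.16 ± 0.12) and H2-Ob (−0.58 ± 0.04) fell, and the peptide loading genes of class I, Tap1 (0.38 ± 0.03) and Tapbp (0.37 ± 0.04), rose. Of 14 basophil, mast cell and eosinophil genes, 6 rose and 2 fell (57.1% called), with summed levels of 77.2 to 87.7 FPKM against 53 to 67 FPKM. The counts became 4 and 3 without mouse 1, and 3 and 3 on TPM and after quantile normalization. Csf1 and Epx rose (1.68 ± 0.13 and 0.79 ± 0.18) and Alox5ap and Cyp11a1 fell (−1.24 ± 0.10 and −0.65 ± 0.17). Of 9 neutrophil genes (33.3% called), Mpo, Elane and Mmp9 rose (2.32 ± 0.34, 1.53 ± 0.31 and 1.02 ± 0.24), and the summed level was 72.4 to 93.4 FPKM against 23.1 to 43.1 FPKM. Without mouse 1, 3 neutrophil genes were called higher and 2 lower, and the median moved from 0.56 to 0.14. Of 10 erythroid and platelet genes (40.0% called), Car2 rose (1.02 ± 0.31), Ppbp, Pf4 and Itga2b fell, and the sums overlapped (38.1 to 75.1 and 35.3 to 53.2 FPKM). Car2 was not called without mouse 1 (adjusted p = 0.0833).

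The liver list, with 12 tested genes, had a median of −1.13 and adjusted p values of at least 0.0547 (Fgb, −0.83 ± 0.30). Without mouse 1, 11 of the 12 fell and the median was −1.83. Ahsg, a plasma protein gene of hepatocytes, was at 3.95, 0 and 0 FPKM against 4.2, 4.31 and 4.19 FPKM. In contrast, the T cell identity list was near balance, with 6 of 17 higher and 7 lower and summed levels of 4740 to 4820 against 4950 to 5090 FPKM: Cd3e (0.37 ± 0.04) and Cd28 (0.38 ± 0.04) rose and Thy1 (−0.87 ± 0.08) fell. The part of other cells in the differences of this comparison was not tested.

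**Figure D4:**
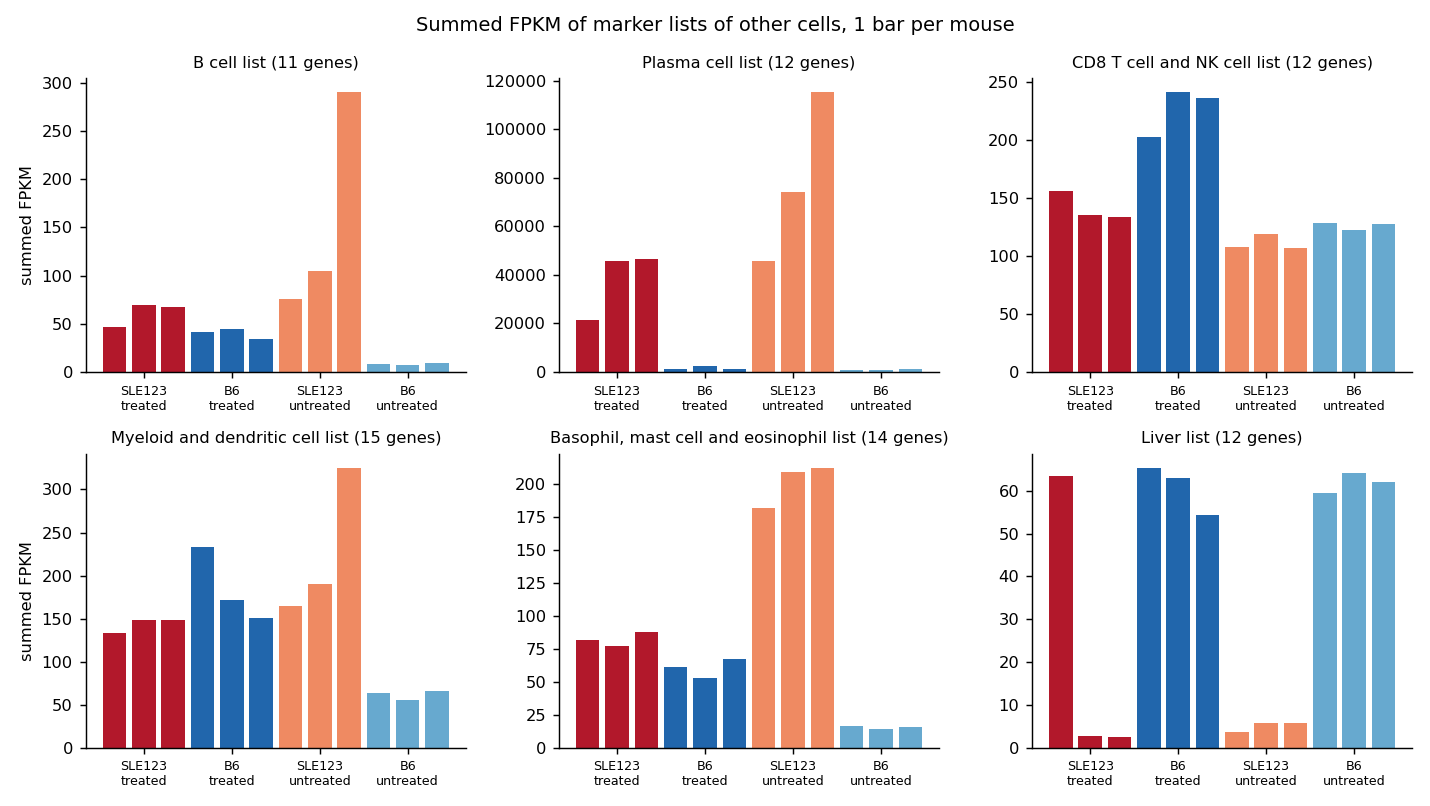
Summed FPKM of the tested genes of 6 marker lists of other cells, 1 bar per mouse in order of its number, y axes from 0. The plasma cell sum was 21300 to 46500 in treated SLE123 and 1260 to 2610 in treated B6 mice, and the liver sum was high in treated SLE123 mouse 1 and all B6 mice and low in the other SLE123 mice.

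The same strain contrast without treatment called 5621 genes (42.9%), and the treated and untreated contrasts share no mouse. Both contrasts called 4189 genes, which is 61.3% of the treated calls and 74.5% of the untreated calls, 4111 of them in the same direction and 78 in opposite directions. Among calls with a 2-fold difference, 904 were shared, 84.2% of the treated and 59.4% of the untreated ones. The difference between the strain differences was tested directly on all 12 mice and called 478 genes (3.64%), 166 with a larger and 312 with a smaller SLE123 minus B6 value after treatment. Of the 312, 244 were higher in untreated SLE123 than in untreated B6 mice, and 119 were lower in treated SLE123 than in treated B6 mice. The count was 2917 without untreated SLE123 mouse 1, 497 and 400 without the other untreated SLE123 mice 2 and 3, 272, 217 and 238 without treated SLE123 mice 1, 2 and 3, 267, 242 and 306 without treated B6 mice 1, 3 and 5, and 223, 205 and 300 without untreated B6 mice 3, 4 and 5.

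The medians of several programs are given here side by side with and without treatment. The Tfh median was 1.73 after treatment and 1.65 without it, that of Treg genes 1.33 and 1.48, of cell cycle genes 1.14 and 1.26, of coinhibitory genes 1.21 and 1.05, of interferon-stimulated genes 0.44 and 0.33 and of ribosomal protein genes −0.44 and −0.39. Of 77 ribosomal protein genes, 76 were called lower after treatment but only 8 without it. Their sums in untreated SLE123 mice spread from 54800 to 89900 FPKM, against 90500 to 93000 FPKM in untreated B6 mice. The medians of memory and activation genes (0.33 and 1.26) and of B cell genes (0.18 and 2.54) lay farther apart. The difference itself was called for 1 of 23 Tfh genes (Cxcr4, −0.86 ± 0.11) and 2 of 20 Treg genes (Klrg1, −1.56 ± 0.25, and Gpr83, 0.69 ± 0.16, the last chosen after its value was seen), and a missing call does not show that the strain differences were equal. For Foxp3 the strain difference was 1.37 ± 0.05 after treatment and 1.28 ± 0.16 without it, and the treated values of each strain lay above its untreated values. The Foxp3 level of untreated mice was 13.7, 12.7 and 15.4 FPKM in SLE123 and 3.93, 5.09 and 6.65 FPKM in B6. Jak3 was the rise that was larger after treatment among the cytokine receptor genes named (1.55 ± 0.07 against 1.04 ± 0.10; difference 0.51 ± 0.12, adjusted p = 0.041). Lgals7, the galectin-7 gene on chromosome 7, was at 19.6, 15.7 and 16.9 FPKM in treated SLE123, 1.86, 2.11 and 1.66 FPKM in treated B6, 1.6, 1.7 and 1.35 FPKM in untreated SLE123 and 0.74, 0.66 and 0.33 FPKM in untreated B6 mice (difference 1.97 ± 0.17, adjusted p = 0.000325). Lgals7 was thus highest in the treated SLE123 mice, without overlap with the other groups.

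Many named genes of other cells did part. Alox5ap, which serves leukotriene synthesis, was at 5.65, 5.29 and 6.34 FPKM in treated SLE123 and 16.9, 15 and 13.1 FPKM in treated B6 mice, and at 11.1, 15.5 and 13.6 FPKM and 3.2, 2.4 and 2.48 FPKM in untreated mice. Its strain difference was −1.24 ± 0.10 after treatment and 1.96 ± 0.14 without it (difference −3.19 ± 0.18, adjusted p = 2.87e-05). Mcpt8, a basophil protease gene, was at 8.96, 7.08 and 10.2 FPKM and 5.09, 4.14 and 7.93 FPKM in treated mice and at 26, 30.9 and 27.3 FPKM and 0.362, 0.259 and 0.581 FPKM in untreated mice (difference −3.82 ± 0.26, adjusted p = 9.64e-05). The chemokine gene Ccl5 was lower in SLE123 than in B6 among treated mice (−0.91 ± 0.12) and higher among untreated mice (1.18 ± 0.10; difference −2.09 ± 0.16, adjusted p = 0.000232). Ncr1 and Nkg7, lower in treated SLE123 than in treated B6 mice, had untreated differences of 0.11 ± 0.23 and −0.05 ± 0.13 (differences −2.35 ± 0.28 and −1.01 ± 0.16). Treated B6 mice were the group apart for both genes. Mean Nkg7 was 68.7 FPKM in treated B6, 32.3 in treated SLE123, 32.3 in untreated SLE123 and 33.3 FPKM in untreated B6 mice. Mean Ncr1 was 5.73, 0.427, 0.507 and 0.349 FPKM in the same order. By list, a smaller SLE123 minus B6 value after treatment was called for 12 of 14 basophil, mast cell and eosinophil genes, 8 of 15 myeloid, 6 of 11 B cell, 5 of 12 CD8 and NK cell and 8 of 21 memory and activation genes, against 3.64% of all genes in either direction. Of the study's 60 metabolic genes, 8 were called with a larger value after treatment, Gpam by the most (0.60 ± 0.07 against −0.21 ± 0.17; difference 0.81 ± 0.20, adjusted p = 0.0473), and those genes had been chosen on treated B6 samples.

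**Figure D5:**
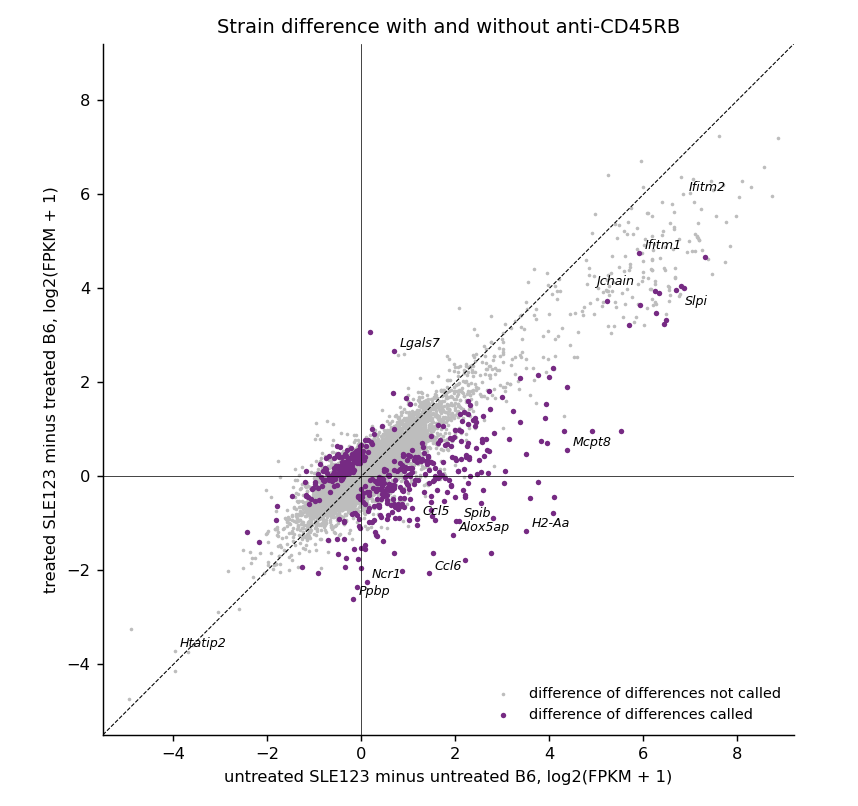
Strain difference (SLE123 minus B6, log2(FPKM + 1)) in untreated mice on the x axis and in treated mice on the y axis for 13115 genes; purple points are the 478 genes called for the difference between them, and the dashed line marks equality. Lgals7 lies above the line, and basophil, myeloid, B cell and NK cell genes such as Mcpt8, Alox5ap, H2-Aa, Spib and Ncr1 lie below it.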

How the data were processed

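RNA-Seq was performed on CD4+ T cells from 12 mice in 4 groups of 3. The authors deposited 1 table of FPKM (fragments scaled to transcript length and to the mapped fragments of the library), 1 column per library. Per the labels and the study's methods, base calls came from CASAVA 1.8, reads with adaptors or low quality were removed, and reads were mapped to mm10. STAR is named in the submitters' processing notes. The counting program, annotation and strand setting are not given in the sources used here, so antisense and overlapping genes cannot be told apart.

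Of 35275 genes, 23230 were above 0. The FPKM of all 23230 (100.0%) came out as whole fragments within a tolerance of 0.02 fragments, which gave the depths. Intervals of detection at 3 fragments cover counting error only. Symbols were taken from GENCODE M21, which matched 97.8% of the IDs in the table, and an ID without a match was kept as the name.

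Groups came from the sample titles, which give mouse numbers and no litter or batch, so p-values measure the spread between these mice. log2(FPKM + 1) was taken for 13115 genes whose average over the 12 mice reached 0.5 FPKM, and fitted with limma 3.58.1 (lmFit, eBayes with a trend, R 4.3.3) on the 6 mice of a contrast, two-sided, with Benjamini-Hochberg adjustment over all genes tested and calls under 0.05. Differences are SLE123 minus B6, given ± the standard error, on the log2(FPKM + 1) scale, which understates the change of low genes. The study used a count model between pairs of conditions. Since the deposited unit is FPKM, limma on log2 values was used here, and voom on the recovered fragments was an alternative. Single shares were compared by the exact permutation test. The fit was tested on simulated data.

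Lists are described by the count called, the count tested and the median difference, beside the same over all genes. The members and lists were chosen with earlier results of these data known. Named genes were the 10 largest rises and 10 largest falls called without overlap (predicted genes, pseudogenes and receptor segments left out), up to 4 called genes of smallest adjusted p per list (2 of smallest adjusted p where no gene was called), the 5 of smallest adjusted p for the difference between treated and untreated strain differences, the called gene of largest difference in 3 windows of 10 Mb on each of chromosomes 1, 4 and 7, and Ptprc, Cd4, Cd3e and Cd8a. Bcl6, Cxcr4, Cxcr5, Il2ra, Vsir, Cdkn1b, Mcm2, Pcna, Ccr7, Cd69, Gata3, Irf7, Slfn1, Isg15, Gpam, Gpr83, Pou2af1 and the ferritin genes fall outside this rule and were chosen after their values were seen. Some genes that the rule names are not reported here. Shared sequence between copies was counted as the share of the 31-base words of a gene's longest GENCODE transcript. This share can be low where shorter transcripts are mostly shared. Alternatives changed the pseudocount, filter, scaling, variance model, call threshold, replicate block and mice.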

Additional observations from a re-analysis of the deposited data

Results flagged for a closer look

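A total of 478 genes had a strain difference after treatment that differed from the strain difference without treatment (limma on 12 mice, adjusted p under 0.05). Those reported here are among the genes named by rule. The values are SLE123 minus B6 after treatment minus SLE123 minus B6 without treatment, on the log2(FPKM + 1) scale, and no explanation was tested.

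Genes of antigen-presenting and B cells had negative values: H2-Aa (−4.66), Spib (−3.02), Mpeg1 (−2.97), Itgax (−2.32), Flt3 (−1.21), Itgam (−0.97) and the endosomal receptor chaperone gene Unc93b1 (−1.56). A negative value does not give the direction within a strain. Mean H2-Aa was 2.72 FPKM in untreated and 32.7 in treated B6 mice, and 50.1 and 14.0 FPKM in SLE123 mice. Mean Itgam was 1.67 and 4.60 FPKM in B6 and 1.09 and 1.21 FPKM in SLE123 mice. H2-Aa and Spib were higher in untreated SLE123 than in untreated B6 mice (3.50 and 2.07) and lower in treated SLE123 than in treated B6 mice (−1.16 and −0.94).

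Genes of granulocytes and mast cells followed the same direction: Mcpt8 (−3.82), Alox5ap (−3.19), Fcer1g (−3.16), Elane (−2.40), Epx (−1.77), Mpo (−1.76) and Cyp11a1 (−1.36). So did the chemokine gene Ccl6 (−3.50) and the growth factor gene Csf1 (−1.30), which was counted in the basophil list but is not particular to those cells. Platelet genes did so too, with Ppbp at −2.43, Tubb1 at −2.27, Pf4 at −2.22 and Itga2b at −1.24. For Ppbp and Tubb1 the untreated strain difference was −0.18 and −0.09. Among genes of NK and cytotoxic cells, the values were −2.35 for Ncr1, −2.09 for Ccl5, −1.95 for Klra7, −1.56 for Klrg1, −1.46 for Cd244a and −1.01 for Nkg7.

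The remaining genes with negative values were Slpi (−2.73), the apoptosis gene Bbc3 (−1.39), Ifi211 (−1.30), Ifitm1 (−1.16), Anxa2 (−1.05), Il10ra (−0.98), Dnaja1 (−0.87), Dnajb1 (−0.59) and S100a11 (−0.54). Il10ra, the receptor gene of interleukin 10, had a strain difference of 1.07 without treatment and 0.10 after it. Positive values were found for Jak3 (0.51) and Lgals7 (1.97).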

How the results depend on the processing

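Over alternative pseudocounts, filters, scalings and variance models, and in 1 fit of 12 mice, 5556 to 7452 genes were called in the treated comparison (6836 as reported, 6965 with voom on recovered fragments), 5182 to 7888 in the untreated comparison and 416 to 545 for the difference between them. With a 2-fold difference required as well, the counts were 1073, 1521 and 201. Leaving out 1 mouse at a time gave 5524 to 6685, 3672 to 6469 and 205 to 2917, the last without untreated SLE123 mouse 1. Among 3389 alternative values of 189 named genes, 3286 kept their direction and their side of the threshold, 77 lost the call, 20 gained it and 6 turned direction. The 6 were Cd4 (−0.0161 on TPM, −0.15 after quantile normalization), Ptprc (−0.11 and −0.15), Il10ra (−0.0789 on TPM) and mt-Nd4 (−0.10 after quantile normalization). The cause was not tested.

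The treated groups share only replicate numbers 1 and 3. Same-numbered mice correlated at 0.065 and 0.143 in their deviations from the group means, within the −0.193 to 0.158 of the other pairs, so pairing was not established. A replicate block left 3414 treated calls and 91 for the difference, and 16 named genes lost their call. No paired analysis was possible for the untreated groups because they share only number 3.

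Depth limits genes near the floor of 3 fragments, and reads from NZM2410 alleles were mapped to B6 sequence. With 3 mice per group, the exact permutation test cannot go below 0.1.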
